A study of Mus musculus with 45 samples.

Results

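Expression and RNA half-life of 42 genes of DNA replication and mitosis were followed in cultured mouse cortical cells by SLAM-seq, a method that labels new RNA with 4-thiouridine (4sU) and reads the label as T-to-C conversions. The 42 genes were taken by symbol from a list of genes with these roles, with no threshold on a measured value, and all 42 were found among the 53491 genes of each of the 9 tables. 21 of them act in DNA replication and are called S-phase genes here, and the other 21 act in mitosis and are called G2/M genes. Wild-type cortices were collected on embryonic days E11.5, E14.5 and E16.5, and no deletion, transgene or drug other than the label and the uridine chase was used. Cells were allowed to attach for 2 h, received 100 uM 4sU for 20 h, and were then chased with 5 mM uridine for 0, 2, 4, 8 or 12 h. Each of the 15 groups of stage and chase time had 3 replicates, A to C, which gave 45 libraries. For a replicate, the cortices of 7 E11.5 embryos, or of 2 embryos of a later stage, were pooled and divided over the 5 chase times. The same letter at different stages therefore marks different embryos. The cells were mixed cultures grown in neural progenitor medium with bFGF, and every value below is an average over progenitors, neurons and other cells.

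The replicative helicase MCM2-7 is loaded onto origins by CDC6 and CDT1, and PCNA, RFC, the polymerases and DNA ligase I then copy the DNA and join its fragments. In mitosis the aurora and polo kinases, the condensins, kinetochore motors and spindle proteins divide the chromosomes, and CDC20 and UBE2C drive the anaphase-promoting complex that ends mitosis. Transcription of the first group is known to be driven by E2F factors near the start of S phase, and that of the second by the MuvB complex through promoter elements called CHR, with NF-Y bound to CCAAT boxes nearby. In the embryonic cortex, radial glia are the dividing cells that line the ventricle, and neurons have left the cell cycle.

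E2F sites were found mainly in promoter windows of S-phase genes and CHR elements mainly in those of G2/M genes. RefSeq promoter windows (GRCm38.p6, 250 bases before to 50 bases after the start site) were at hand for 37 members, 19 S-phase and 18 G2/M genes. A gene with more than 1 window was counted once, as having a motif if any of its windows held it. On both strands, an E2F site (TTTCGCGC, TTTCCCGC, TTTGGCGC or TTTGCCGC) was found in 9 of 19 S-phase genes (47.4%), namely Mcm3, Mcm5, Mcm6, Mcm7, Cdc6, Cdt1, Pola1, Lig1 and Uhrf1. It was found in 1 of 18 G2/M genes (5.56%), Ncapd2, and in 2.60% of all 27025 genes with a window. A CHR element (TTTGAA or TTCGAA) was found in 15 of 18 G2/M genes (83.3%), in 2 of 19 S-phase genes (10.5%, Mcm2 and Mcm7) and in 21.7% of all. A CHR element together with CCAAT was found in 83.3% of G2/M genes, 10.5% of S-phase genes and 9.65% of all. CCAAT, with or without a CHR element, was found in 88.9%, 73.7% and 41.1% of them. These matches are a description of letters in a window, and no binding was measured here. The following 24-base stretches show the E2F sites of 5 S-phase genes whose RNA is described below, with the site in capitals, 5′ to 3′ on the strand of the gene. In Mcm5 a TTTGGCGC site on the other strand overlaps the one shown.
Mcm5 (chr8:75109348-75109371, plus strand): ccaagaacTTTCGCGCcaaaacgt
Cdc6 (chr11:98908005-98908028, plus strand): ggtggagaGCGGGAAAtcgcctgg
Cdt1 (chr8:122568039-122568062, plus strand): actaccttTTTGGCGCcatggcgc
Lig1 (chr7:13278844-13278867, plus strand): caaagtgcGCGCGAAAtctgtgtg
Uhrf1 (chr17:56304120-56304143, plus strand): gagtcgggTTTCGCGCgcccaggc
The next 22-base stretches show 1 CHR element, in capitals, of each of 6 G2/M genes named below.
Top2a (chr11:99024316-99024337, minus strand): ttggtttaTTCGAAaaggcggt
Mki67 (chr7:135716482-135716503, minus strand): cgccagaaTTTGAAccgccgtt
Plk1 (chr7:122159457-122159478, plus strand): gcgccgcgTTTGAAttcgggga
Cdc20 (chr4:118437348-118437369, minus strand): agttgggtTTTGAAggagccaa
Ube2c (chr2:164769892-164769913, plus strand): ggttgcaaTTCAAAcgcgggcg
Aspm (chr1:139454771-139454792, plus strand): gcgcgataTTTGAAccgagcaa
Tpx2, Aurkb, Smc4, Mcm4 and Gins2 have no window in the table.

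Sequencing depth, in units of 1000000 reads, was 15.9 to 43.9 per library (median 33). The 3 E11.5 libraries at 12 h stood apart. The transcript Gm42418 took 3.38 to 8.16% of their reads, against 0.163 to 2.29% in the other 42 libraries, and their tables held 82.9 to 87.8% of the total behind the deposited cpm, against 89.6 to 92.3% elsewhere. Counts of calls that rest on them are given on more than one scale, and so are the named genes whose call changed with the scale. Exons of 12 members overlap those of another gene, 10 on the opposite strand (among them Ube2c, Nusap1, Plk1, Cdc20, Prc1, Mcm7, Lig1, Slbp, Gins2 and Rfc4) and 3 on the same strand (Mcm7, Top2a and Ncapd2). Tyms and Pcna have annotated pseudogenes. How the counting treated strand and shared reads is not given in the sources used here, so values of these genes are less certain.

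To ask how the machinery of division changed over development, levels at 0 h of chase were compared between successive stages. Levels are given in cpm, the reads on a gene's exons per 1000000 reads. They are not divided by gene length and are therefore compared within a gene only. Most S-phase genes fell at both steps, and G2/M genes fell mainly at the second. From E11.5 to E14.5, 19 of 21 S-phase genes were lower and none was higher, with a median log2 fold change of -0.69 and 3 genes past 2-fold. In the same step 13 of 21 G2/M genes were lower and none was higher, with a median of -0.30 and none past 2-fold. From E14.5 to E16.5 all 21 S-phase genes were lower (median -0.99, 10 past 2-fold), as were all 21 G2/M genes (median -1.19, 15 past 2-fold). Of the 18408 genes tested, 23.5% were called lower at the first step (8.00% past 2-fold) and 25.4% at the second (5.92% past 2-fold), and the median gene moved by under 0.01 log2 units at either. Calls are at an adjusted p under 0.05 in edgeR's quasi-likelihood test. Both steps share the E14.5 libraries, so the values are set side by side and the steps were not tested against each other.

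**Figure D1:**
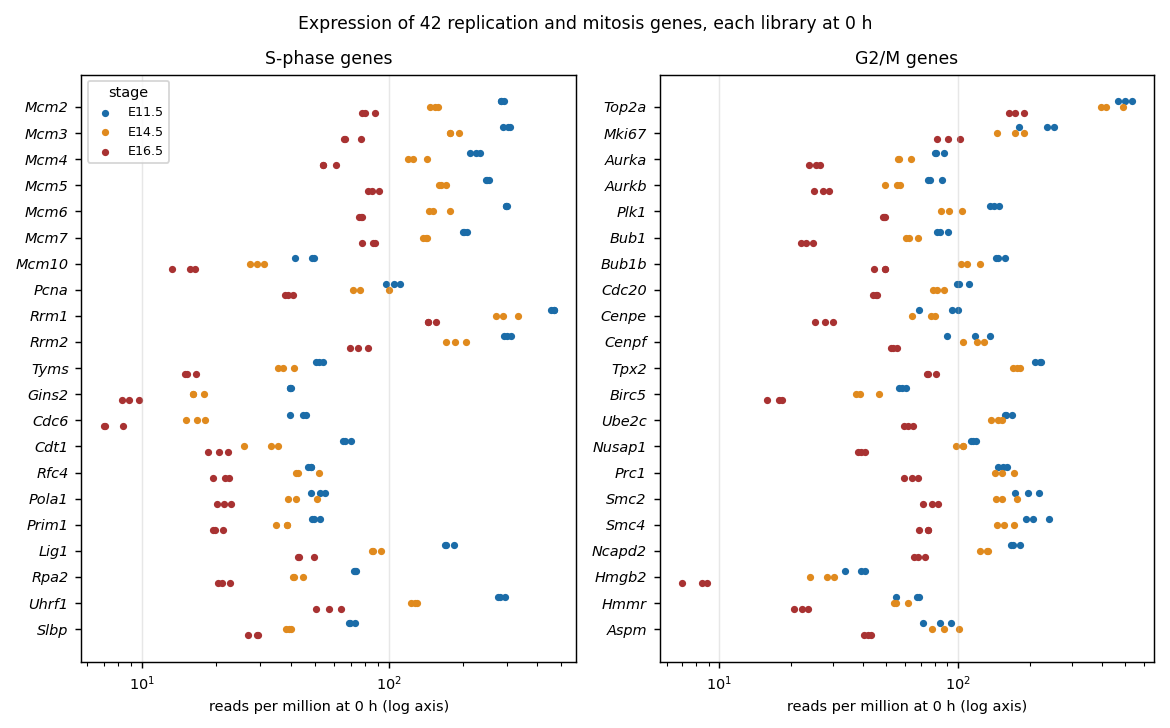
Levels of the 42 members at 0 h of chase in each replicate (cpm, log axis) for the 3 stages, with S-phase genes and G2/M genes in separate panels. Each point is 1 of the 3 pools of a stage, which colours mark. Most S-phase genes step down at each stage (Rfc4 and Pola1 overlap between E11.5 and E14.5), and most G2/M genes drop mainly between E14.5 and E16.5.

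Among the S-phase genes, Mcm2, a subunit of the helicase, was at 285, 293 and 286 cpm at E11.5, at 154, 158 and 146 cpm at E14.5 and at 79.8, 87.8 and 77.8 cpm at E16.5. The 3 stages did not overlap, and the log2 fold changes were -0.85 and -0.90. Cdc6, the helicase loader, fell most at the first step, from 46.3, 39.9 and 44.98 cpm to 16.7, 15.01 and 17.9 cpm (log2 -1.36 ± 0.11 SE, adjusted p 3.24e-07). It was followed by Gins2, a subunit of the GINS complex that activates the helicase (-1.19 ± 0.09), and Uhrf1, which maintains DNA methylation behind the fork (-1.08 ± 0.07). Pcna, the sliding clamp, fell by 0.32 at the first step and by 1.02 at the second on the log2 scale, and its first call was lost without E11.5 A, E14.5 A or E14.5 B (-0.28, -0.28 and -0.22). The exceptions to the first step were Rfc4, a subunit of the clamp loader (-0.02 ± 0.09, adjusted p 0.866), and Pola1, the catalytic subunit of the polymerase that primes synthesis (-0.18 ± 0.10, adjusted p 0.165), in both of which the stages overlapped. Pola1 was called without E14.5 C (-0.29).

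The second step was largest for Mcm3 (-1.34 ± 0.07, from 176, 176 and 192 cpm to 66.2, 77.4 and 65.9 cpm) and for enzymes of nucleotide supply, Rrm2 of ribonucleotide reductase (-1.31 ± 0.09) and Tyms, thymidylate synthase (-1.26 ± 0.08). It was smallest for Slbp, which binds the 3′ stem-loop of histone mRNAs (-0.46 ± 0.07), and for Cdt1 (-0.66 ± 0.10). The adjusted p of these 5 genes was at most 0.000179, and their replicates did not overlap.

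Among the G2/M genes, Mki67, which coats mitotic chromosomes, was at 253, 180 and 235 cpm at E11.5, at 146, 173 and 190 cpm at E14.5 and at 81.4, 102 and 91.1 cpm at E16.5. Its E11.5 and E14.5 values overlapped, although the fit called it lower (-0.35 ± 0.13, adjusted p 0.0351). That call was lost without E11.5 A or C or E14.5 A or B (-0.25 to -0.36). Its E16.5 values lay below all others (-0.86 ± 0.13). Top2a, the topoisomerase that untangles sister chromatids, was at 535, 470 and 502 cpm, then 397, 416 and 490 cpm, then 173, 188 and 163 cpm. Its first change did not pass the test (-0.17 ± 0.08, adjusted p 0.112) but did without E14.5 C (-0.25) or without a scaling factor (-0.24), and its second was -1.27 ± 0.09. At the first step Plk1, the polo-like kinase (-0.57 ± 0.08), Aurkb, the aurora kinase of the chromosomal passenger complex (-0.51 ± 0.09), and Hmgb2, a chromatin protein of dividing cells (-0.48 ± 0.10), fell most. Besides Top2a, the genes not called there were Cenpe, Cenpf, Ube2c, Nusap1, Prc1, Hmmr and Aspm, of which Prc1, a bundler of the central spindle (0.05 ± 0.07), and Cenpf, a kinetochore protein (0.08 ± 0.12), moved least.

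At the second step the checkpoint kinase Bub1 (-1.44 ± 0.07, from 62.5, 60.7 and 68.2 cpm to 23.1, 24.7 and 21.95 cpm), the kinetochore motor Cenpe (-1.40 ± 0.13) and Hmgb2 (-1.35 ± 0.10) fell most. Plk1 (-0.89 ± 0.08) and Mki67 fell least. The smallest G2/M change of the second step was thus larger than the largest of the first.

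Genes outside the 42 moved likewise. Of 42 other replication genes, 31 were lower and 3 higher (Orc3, Orc4 and Orc5, subunits of the origin recognition complex) at the first step, and 37 lower and 1 higher (Pold3) at the second. Of 41 other mitosis genes tested, 24 were lower and 1 higher (Ckap5) at the first step and all 41 lower at the second. Over all genes, 4620 were higher at the first step and 4433 at the second. Markers of the cell types in these cultures moved with stage as well. The summed level of 8 radial glia markers had means of 9968, 4108 and 1567 cpm at the 3 stages, and that of 9 neuron markers 3296, 6600 and 9267 cpm. At the first step 7 of the radial glia markers were lower and 1 was higher, and at the second all 8 were lower. Of the neuron markers 8 were higher and 0 lower, and then 7 higher and 2 lower. 8 erythroid markers summed to 1557 to 3407 cpm at E11.5 and to 87.3 to 208 cpm later, and 7 meningeal and mural markers to 465 to 704 cpm and then 15.3 to 33.3 cpm. All 6 erythroid markers tested were lower at the first step, and 2 were lower and 1 higher at the second. Of the meningeal and mural markers 6 were lower and 1 was higher, and then 1 was lower and 3 were higher. 5 intermediate progenitor markers summed to means of 299, 324 and 189 cpm, with 2 higher and 2 lower and then all 5 lower, and 6 interneuron markers to 42.6, 52.9 and 274 cpm, with all 5 tested higher at the second step. The part of these cells in the fall of the 42 genes was not tested, and in whole cultures fewer dividing cells and less RNA per cell cannot be told apart. No marker of these lists was at 0 in all 3 libraries of any stage at 0 h.

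The balance between the groups was read within each library, as the mean log2 cpm of the 21 S-phase genes minus that of the 21 G2/M genes. The difference is free of library scaling, and only its changes have a meaning, since the cpm are not per length. At 0 h it was -0.04 ± 0.05 (SD, n = 3) in E11.5 libraries, -0.48 ± 0.05 in E14.5 libraries and -0.29 ± 0.03 in those of E16.5, with no overlap between stages.

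Whether levels held steady during the chase matters for the half-lives, which are read from the label alone. Over the chase the groups parted at the later stages, and by 12 h G2/M genes had declined while S-phase genes had not. At E14.5, 18 of 21 G2/M genes were lower at 12 h than at 0 h and none was higher (median log2 -0.40), and at E16.5 15 of 21 were lower and none was higher (median -0.39). Of the 16559 genes tested over the chase, 10.4% and 8.34% were called lower, and the median gene moved by 0.00 and 0.03. S-phase genes had 3 members higher and none lower at E14.5 (median 0.16), and 15 higher and none lower at E16.5 (median 0.32), where 11.2% and 12.5% of all genes were called higher. With the pool as a block, 13 S-phase genes were higher at E14.5, including the 3, where 2915 of the 16559 genes were. Without replicate C of E14.5 5 S-phase genes were higher, and 6 without replicate B of E16.5, which shares the estimate of spread. In these fits 1259 of 16680 and 1709 of 16637 genes were called higher.

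**Figure D2:**
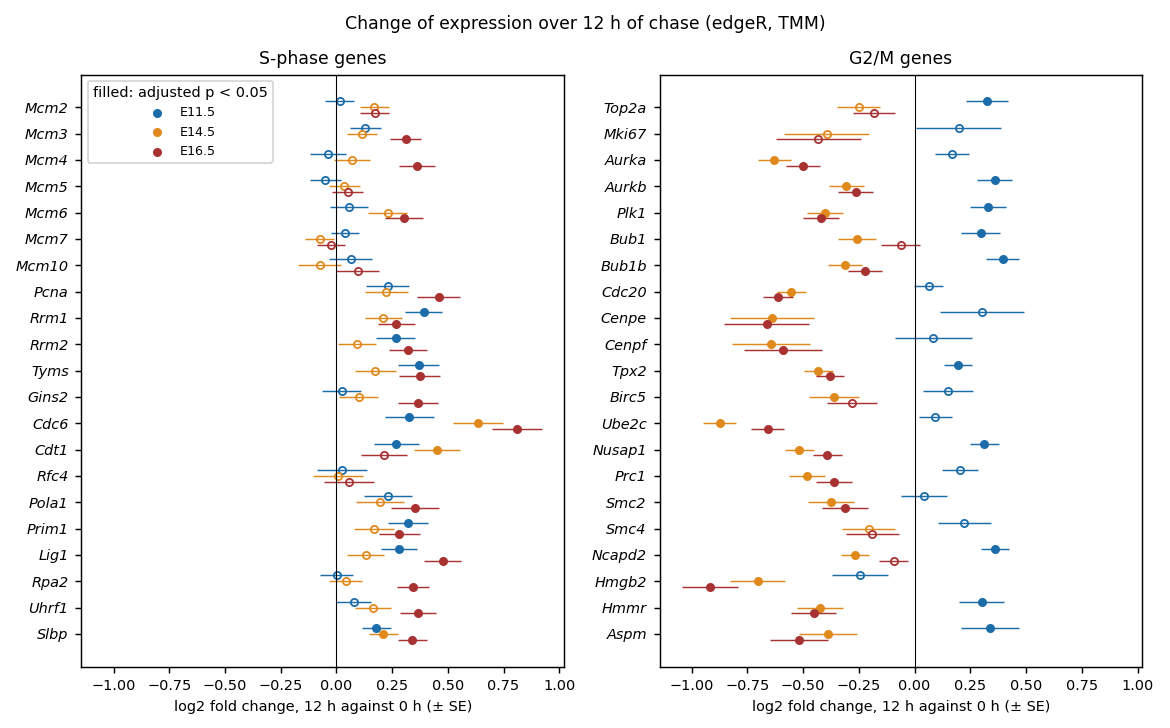
Log2 fold change from 0 to 12 h of chase (± SE, edgeR with TMM scaling) for each member, with the 3 stages in separate colours. Filled points passed an adjusted p of 0.05. At E14.5 and E16.5 all G2/M points lie below 0, and 18 and 15 of them are filled, whereas most S-phase points lie above 0.

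At E14.5 the largest declines were those of Ube2c, the ubiquitin-conjugating enzyme of the anaphase-promoting complex, from 152, 147 and 137 cpm to 81.9, 75.5 and 82.7 cpm (-0.88 ± 0.08, adjusted p 1.06e-10), Hmgb2 (-0.70 ± 0.13) and Cenpf (-0.65 ± 0.18), whose call was lost without E14.5 C (-0.54). In Ube2c every 12 h value lay far below every 0 h value. Top2a (-0.25 ± 0.09, adjusted p 0.0518), Mki67 (-0.39 ± 0.19, adjusted p 0.140) and the condensin subunit Smc4 (-0.21 ± 0.12, adjusted p 0.228) were not called.

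At E16.5 the largest declines were those of Hmgb2, from 8.90, 8.44 and 6.97 cpm to 4.93, 4.70 and 4.12 cpm (-0.92 ± 0.13, adjusted p 2.01e-06), Cenpe (-0.66 ± 0.19) and Ube2c (-0.66 ± 0.08), in each of which the times did not overlap. The call of Cenpe was lost without E16.5 A or B (-0.68 and -0.60). Top2a (-0.18 ± 0.09), Mki67 (-0.43 ± 0.19), Bub1 (-0.06 ± 0.09), Birc5, Smc4 and the condensin subunit Ncapd2 (-0.09 ± 0.06) were not called. Calls of Top2a and Mki67, the 2 genes best known as markers of dividing cells, depended on the fit. With the pool as a block Top2a was called lower at E14.5 and E16.5 (-0.25 and -0.19, adjusted p 0.00278 and 0.0242), and Mki67 was not (adjusted p 0.0751 and 0.0527). In a fit of the 0 and 12 h libraries of 1 stage alone Mki67 was called lower at both (-0.39 and -0.46, adjusted p 0.0385 and 0.00234), and Top2a was not (adjusted p 0.0837 and 0.0518).

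The S-phase genes that rose at E14.5 were Cdc6, from 16.7, 15.01 and 17.9 cpm to 24.4, 26.4 and 27.1 cpm (0.63 ± 0.11, adjusted p 6.8e-05), Cdt1 (0.45 ± 0.10) and Slbp (0.21 ± 0.06), whose call was lost without E14.5 A or C. Rfc4 (0.01 ± 0.11) and Mcm5 (0.04 ± 0.07) moved least. At E16.5 Cdc6 again moved most, from 7.08, 8.37 and 7.00 cpm to 12.7, 13.9 and 12.1 cpm (0.81 ± 0.11, adjusted p 2.08e-06). It was followed by Lig1, DNA ligase I (0.48 ± 0.08), and Pcna, from 39.2, 40.9 and 37.9 cpm to 52.6, 52.6 and 50.1 cpm (0.46 ± 0.10). Mcm2 (0.17 ± 0.06, adjusted p 0.0559), Mcm5 (0.05 ± 0.07), Mcm7 (-0.03 ± 0.06), Mcm10, Cdt1 and Rfc4 were not called at E16.5, so the members left uncalled there included 4 of the 7 Mcm genes. At E14.5 Mcm2 (0.17 ± 0.06) and Pcna (0.22 ± 0.10) were not called either. With the pool as a block Mcm2 was called at both stages and Pcna at E14.5 as well.

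**Figure D3:**
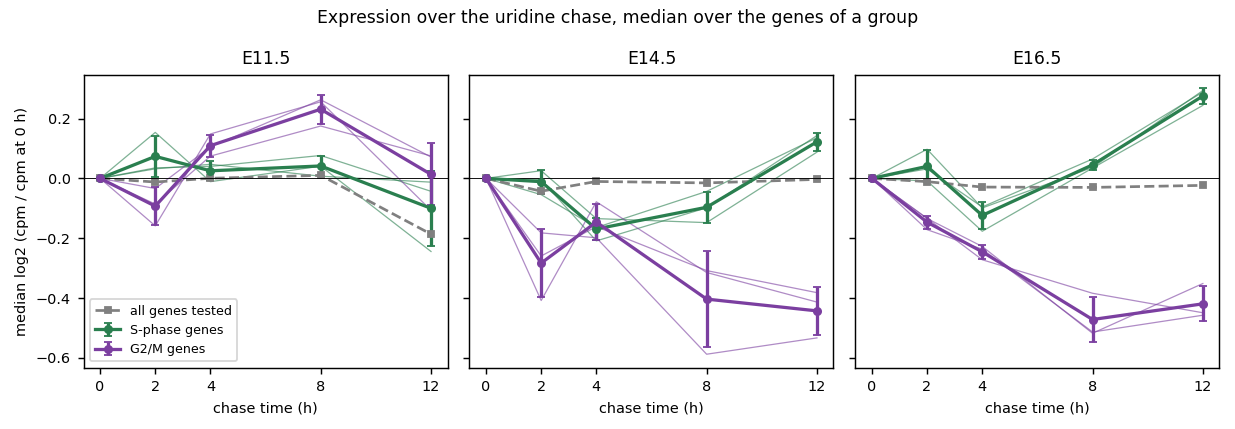
Level of each group over the chase, as the median over its 21 genes of the log2 ratio to 0 h of the same pool (cpm), with a panel per stage. Thin lines are single pools, thick lines their mean ± SD, and the dashed grey line is the median of all genes tested. The G2/M lines of E14.5 and E16.5 end at medians between -0.35 and -0.53 in all 6 pools, and the S-phase lines end above 0 there.

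The decline was seen in every pool. On the cpm scale the median G2/M gene stood at -0.41, -0.38 and -0.53 log2 units at 12 h in the E14.5 pools and at -0.35, -0.45 and -0.46 in the E16.5 pools, and the median S-phase gene at 0.14, 0.14 and 0.09, and at 0.24, 0.29 and 0.29. The S-phase genes had dipped at 4 h, to medians of -0.16, -0.21 and -0.13 at E14.5 and of -0.18, -0.10 and -0.10 at E16.5. Declines were already called at 8 h for 14 G2/M genes at E14.5 (5.40% of all genes) and for 14 at E16.5 (5.65%). At 2 h, 4 were called at E14.5 (2.34% of all genes), and 11 with the pool as a block (1083 of 16559 genes). In the E14.5 libraries at 2 h, however, Gm42418 took 1.64% (A) and 2.29% (B) of reads, against 0.256% in C. It took 2.01% in E14.5 C at 8 h. The median G2/M gene stood at -0.41, -0.26 and -0.18 in E14.5 pools A to C at 2 h. At 4 h it stood at -0.08, -0.16 and -0.20, so the decline was not steady in A and B. The within-library difference between the groups was -0.48 ± 0.05 at 0 h and 0.11 ± 0.07 at 12 h for E14.5, and -0.29 ± 0.03 and 0.41 ± 0.03 for E16.5. In both stages the 3 values at 12 h lay above the 3 at 0 h. Of the other mitosis genes, 28 of 41 were lower and none was higher at E14.5, and 21 were lower and 2 higher at E16.5, while other replication genes had 4 lower and 9 higher, and 2 lower and 13 higher, of 42. Summed radial glia markers had means of 4108 cpm at 0 h and 4277 cpm at 12 h at E14.5 and of 1567 and 1832 cpm at E16.5, and neuron markers 6600 and 6788 cpm, and 9267 and 10287 cpm, so neither sum fell. Intermediate progenitor markers summed to 308 to 343 cpm at 0 h and 284 to 322 cpm at 12 h at E14.5, and to 170 to 202 cpm and 131 to 142 cpm at E16.5, and 1 of 5 and 3 of 5 of them were lower. Erythroid markers summed to 87.3 to 145 cpm and 24.4 to 78.6 cpm at E14.5, and to 87.4 to 208 cpm and 47.6 to 90.3 cpm at E16.5. For E11.5, whose 12 h libraries stood apart, summed radial glia markers had means of 9968 cpm at 0 h and 8205 cpm at 12 h. Neuron markers there had means of 3296 and 3372 cpm, intermediate progenitor markers 299 and 241 cpm, and erythroid markers 2346 and 1539 cpm. Their part in the result was not tested.

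At E11.5 the decline was not seen. With TMM scaling 8 S-phase genes (median log2 0.13) and 10 G2/M genes (median 0.22) were higher at 12 h than at 0 h and none was lower, and 17.4% of all genes were called higher. These calls depended on the scale. On the deposited cpm scale, tried after the data were seen, 0 members of either group were higher while 5 S-phase and 2 G2/M genes were lower. On that scale 1001 of the 16559 genes were called higher and 5406 lower, and the median of all genes moved from 0.03 to -0.19. Without a scaling factor 2 S-phase and 4 G2/M genes and 1521 of all genes were higher, and the median of all genes was -0.09. Of all genes called, 64.0% were higher with TMM, 15.6% on the cpm scale and 31.5% without a factor. Leaving out replicate A, B or C left 3, 2 or 3 S-phase genes higher, and leaving out B left 5 G2/M genes. Over all genes these fits called 2096 of 16702, 1779 of 16676 and 2368 of 16615 higher, against 2882 of 16559 with every replicate. On the cpm scale the median S-phase gene stood at -0.08 and the median G2/M gene at 0.00, both above the median of all genes.

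Rrm1 (462 ± 5.92 cpm at 0 h and 519 ± 23.1 at 12 h, SD, n = 3; log2 0.39 ± 0.08 SE with TMM), Tyms (0.37 ± 0.09) and Cdc6 (0.33 ± 0.11) led the S-phase genes at E11.5. Bub1b, the checkpoint kinase BubR1 (150 ± 6.92 and 169 ± 14.7 cpm; 0.39 ± 0.08), Ncapd2 (0.36 ± 0.06) and Aurkb (0.36 ± 0.08) led the G2/M genes, and the cpm replicates of the latter 3 overlapped between the times. Top2a was at 535, 470 and 502 cpm at 0 h and 593, 532 and 499 cpm at 12 h (0.32 ± 0.09). On the cpm scale these 7 stood at 0.11 to 0.18 and were not called, and the calls of Cdc6 and Top2a were also lost without replicate B. Cdc6 was lost without A or C as well. Pcna (0.23 ± 0.10) was called only with the pool as a block, with DESeq2 and without E14.5 C, and Mki67 (0.20 ± 0.19) was not called. Mcm2 (0.01 ± 0.06), Rpa2, a subunit of the single-strand binding protein RPA (0.00 ± 0.07), Smc2 (0.04 ± 0.10) and Cdc20 (0.06 ± 0.07) moved least with TMM, and Mcm2, Rpa2 and Cdc20 stood at -0.19, -0.22 and -0.17 on the cpm scale. At 8 h, where the libraries did not stand apart, 9 G2/M genes were higher and 1 was lower (12.2% of all genes were called higher). On the cpm scale 6 were higher and 0 lower, where 1612 of the 16559 genes were higher. The within-library difference between the groups, which no scaling moves, went from -0.04 ± 0.05 at 0 h to -0.10 ± 0.05 at 12 h. Of the other mitosis genes, 17 of 41 were higher and 1 lower with TMM, and of the other replication genes 10 of 42 and 1.

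The difference between stages was then tested itself, as the 12 h change at a later stage minus that at E11.5. 16 of 21 G2/M genes declined more at E14.5 than at E11.5 (median difference -0.67 log2 units, against -0.03 over all genes, of which 4.70% were called lower). 15 of 21 declined more at E16.5 than at E11.5 (median -0.63, against -0.01, 5.43% called lower). On the cpm scale 11 and 12 were called, without a scaling factor 14 and 15, and with 8 h in place of 12 h, which leaves out the libraries that stood apart, 14 and 15. In the same order 356 and 443, 447 and 666, and 290 and 336 of the 16559 genes were called lower. Of all genes called, 22.5% and 39.0% were higher with TMM, 84.9% and 83.2% on the cpm scale, and 57.0% in both without a factor, so on the latter scales the G2/M genes were lower where most called genes were higher. Both comparisons share the E11.5 libraries.

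Ube2c (-0.97 ± 0.11, adjusted p 1.37e-07), Cenpe (-0.94 ± 0.27, adjusted p 0.0248) and Nusap1, a spindle microtubule protein (-0.83 ± 0.09, adjusted p 1.4e-07), differed most at E14.5. Cenpe (-0.96 ± 0.27, adjusted p 0.0171), Aspm, a spindle pole protein required for cerebral cortical size (-0.86 ± 0.18, adjusted p 0.00195), and Hmmr, a spindle assembly protein (-0.75 ± 0.14, adjusted p 0.00054), did so at E16.5. The call of Cenpe was not stable. It was lost at E14.5 on the cpm scale (-0.71, adjusted p 0.0649), without a scaling factor (-0.83), at 8 h (-0.85, adjusted p 0.0962) and without E11.5 A or B or E14.5 C (-0.93, -0.87 and -0.79). At E16.5 it was lost on the cpm scale (-0.75, adjusted p 0.0590), at 8 h (-0.78) and without E11.5 B or E16.5 A or B (-0.90, -0.99 and -0.90). Aspm was at 93.8, 71.1 and 83.7 cpm at 0 h and 107, 88.3 and 76.5 cpm at 12 h at E11.5, which overlap, and went from 41.97, 43.2 and 40.3 cpm to 29.3, 30.1 and 25.2 cpm at E16.5, which do not. Top2a differed by -0.57 ± 0.13 and -0.51 ± 0.13 (adjusted p 0.0052 and 0.0118), which did not pass on the cpm scale (-0.36 and -0.33, adjusted p 0.0869 and 0.128) nor, at E16.5, without E11.5 B (-0.48). Mki67 differed by -0.59 ± 0.27 and -0.63 ± 0.27, which did not pass (adjusted p 0.230 and 0.151). The condensin subunit Smc2 (-0.42 ± 0.15 and -0.36 ± 0.15), Smc4 at E14.5 (-0.43 ± 0.17) and Bub1 at E16.5 (-0.36 ± 0.12) had the smallest differences, which among the alternatives run passed only with the pool as a block and, for Bub1, also at 8 h (-0.58), on recovered reads (-0.38) and without E14.5 A (-0.36).

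S-phase genes gave less. No S-phase gene changed differently at E14.5 and E11.5 with TMM (edgeR, 0 of 21, and 0 at an unadjusted p under 0.05). None did at 8 h or without a scaling factor. On the cpm scale 3 rose more at E14.5, Mcm2 (0.36, adjusted p 0.0171), Mcm6 and Cdc6, where 2009 of the 16559 genes did. With the pool as a block 1 did, Cdc6, where 692 of all genes did. With TMM Pcna (-0.01 ± 0.14) and Mcm3 (-0.01 ± 0.10) had the smallest differences. Cdc6 (0.48 ± 0.16), Mcm4 (0.40 ± 0.11) and Rpa2 (0.34 ± 0.10) rose more at E16.5 than at E11.5, at adjusted p of 0.0471, 0.0217 and 0.0307, where 3.47% of all genes did. With the pool as a block 8 did, including the 3, where 1367 of all genes did, and 9 on the cpm scale, where 2192 did. None did with 8 h in place of 12 h, or without any 1 of E11.5 A, B or C or E16.5 A or C. Tyms (0.01 ± 0.13), Mcm10 (0.03 ± 0.14), Mcm2 (0.16 ± 0.09) and Pcna (0.23 ± 0.14) did not pass, although Mcm2 did on the cpm scale (0.32, adjusted p 0.0309) and Pcna with the pool as a block. Between E16.5 and E14.5 no member of either group differed in edgeR (0 of 42), with 4 S-phase and 0 G2/M genes at an unadjusted p under 0.05. With the block 6 S-phase genes rose more at E16.5, where 702 of all genes did. Without the block, 106 and 44 of all genes were called higher and lower. The smallest differences there were those of Mcm2 (0.00 ± 0.09), Mcm5 (0.01 ± 0.10), Smc4 (0.02 ± 0.17) and Plk1 (-0.02 ± 0.12), and those of Pcna (0.24 ± 0.14), Top2a (0.07 ± 0.13) and Mki67 (-0.04 ± 0.27) did not pass. Of the other mitosis genes, 33 and 27 of 41 declined more than at E11.5 and none less with TMM, and of the other replication genes 1 and 1 of 42 did. These counts were not taken on the other scales.

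Half-lives were fitted to the conversion rate, the share of covered Ts read as C, relative to 0 h, for transcripts with more than 500 covered Ts at each time. The fit was kept where R2 was over 0.6 in all 3 replicates of a stage. All 42 members were kept at E11.5 and E14.5 and 40 at E16.5, where Aurkb and Hmgb2 fell short in replicate C (R2 of 0.575 and 0.475). The median half-life of the S-phase genes was 4.50 ± 0.35 h in E11.5 cultures, then 4.48 ± 0.33 h (E14.5) and 4.12 ± 0.28 h (E16.5; mean ± SD over the 3 replicate medians). That of the G2/M genes was 4.01 ± 0.58, 3.88 ± 0.07 and 3.99 ± 0.20 h. The replicate medians of either group overlapped between stages, whereas the median over all transcripts kept at a stage was 4.38 ± 0.45, 4.56 ± 0.19 and 3.46 ± 0.07 h and was lower at E16.5 in every replicate. At E14.5 the replicate medians of G2/M genes (3.82 to 3.95 h) lay below those of S-phase genes (4.15 to 4.82 h), and at the other stages they overlapped between pools. Within a pool, the G2/M median was below the S-phase median in 9 of 9 pools, by 0.413, 0.297 and 0.738 h at E11.5, by 0.615, 0.332 and 0.872 h at E14.5 and by 0.0138, 0.178 and 0.179 h at E16.5. Genes are not replicates, so the groups are compared here by description, with no test.

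**Figure D4:**
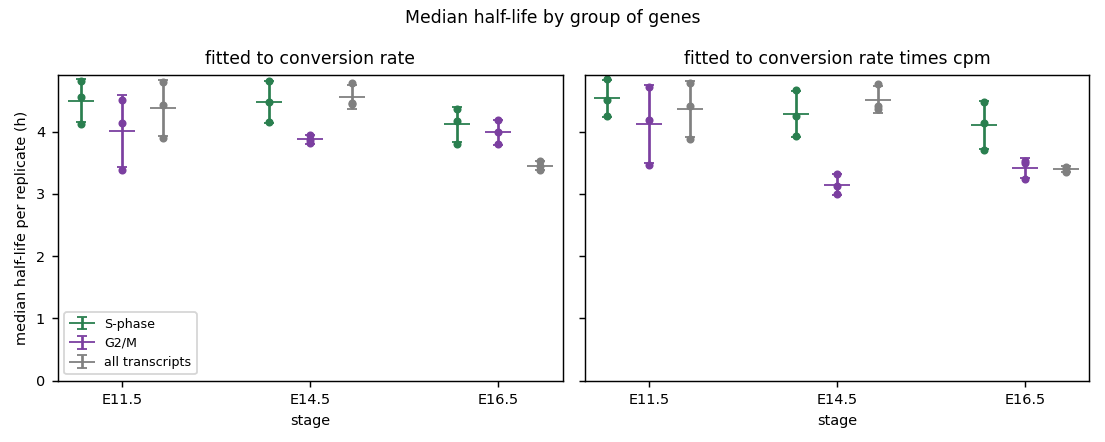
Median half-life of S-phase genes, G2/M genes and all transcripts per replicate (points, with mean and SD), fitted to the conversion rate (left) and to the rate times cpm (right). On the left the medians of the member groups stay near 4 h while that of all transcripts drops to 3.46 h at E16.5. On the right the G2/M median is lower at the later stages (3.15 and 3.42 h).

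The order among members was wide within both groups. Averaged over the stages, the shortest S-phase half-lives were those of the licensing factors Cdt1 (2.64 h) and Cdc6 (2.90 h) and of Slbp (2.90 h). The longest were those of Lig1 (6.35 h), Mcm5 (5.78 h) and Tyms (5.47 h). Cdt1 had half-lives of 2.34, 2.40 and 2.14 h at E11.5, of 1.69, 3.08 and 3.39 h at E14.5 and of 3.07, 2.30 and 3.34 h at E16.5. Lig1 had 6.64, 8.32 and 5.93 h, then 5.75, 6.16 and 6.12 h, then 6.79, 4.89 and 6.52 h, so the values of Lig1 and Cdt1 did not overlap at any stage. Neighbours in this order, such as Cdc6 and Slbp, were closer than their replicate spread.

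Among the G2/M genes kept at every stage, the shortest half-lives were those of the kinases Aurka (2.54 h) and Plk1 (3.32 h) and of Cenpe (3.27 h). The longest were those of the condensin subunit Ncapd2 (5.63 h), Bub1 (4.82 h) and Top2a (4.52 h). In stage order, Aurka had 2.66, 3.18 and 2.45 h, then 2.15, 2.18 and 2.48 h, then 3.09, 2.15 and 2.51 h. Ncapd2 had 5.57, 6.37 and 5.09 h, then 5.17, 5.598 and 5.92 h, then 6.07, 5.11 and 5.82 h. Bub1 at E16.5 ranged from 4.33 to 7.77 h and was thus poorly determined. Mcm2 (5.17 ± 0.34, 5.26 ± 0.42 and 4.46 ± 0.10 h) and Pcna (5.02 ± 0.52, 4.99 ± 0.44 and 4.53 ± 0.37 h) lay above the median of their group at each stage, and Mki67 (3.396 ± 0.22, 3.401 ± 0.27 and 3.62 ± 0.11 h) below that of its own.

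**Figure D5:**
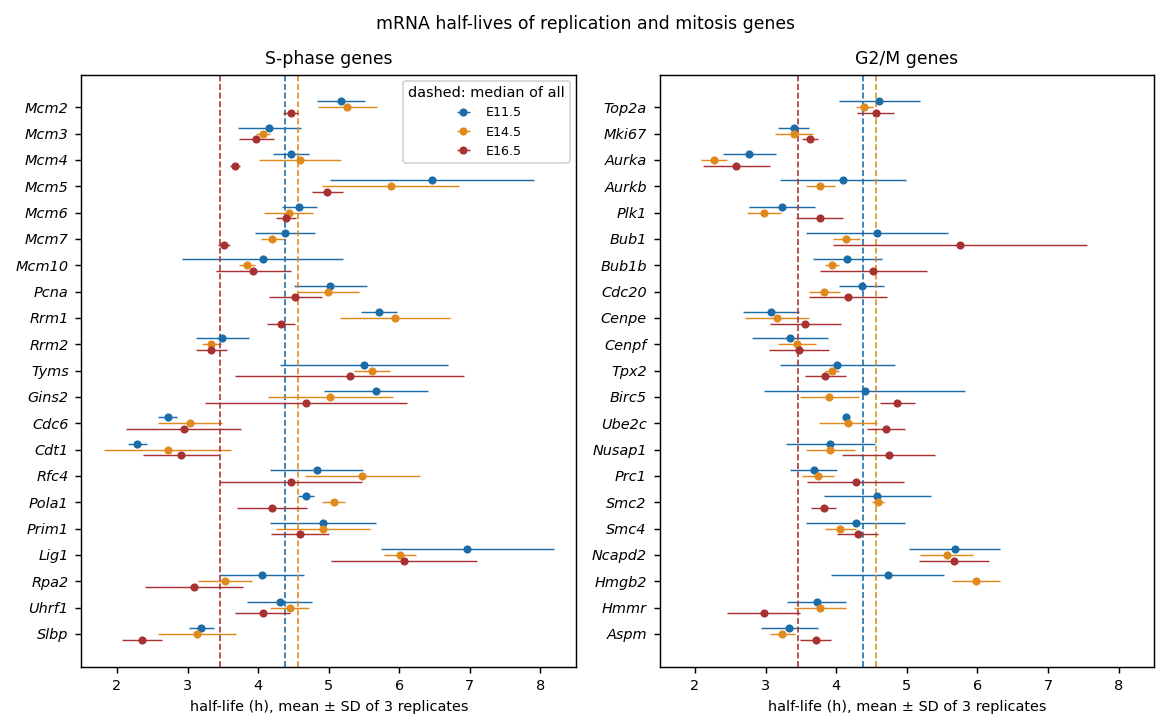
Half-life of each member (h, mean ± SD of 3 replicates) with stages in separate colours and S-phase and G2/M genes in separate panels. Dashed lines mark the median of all transcripts at each stage, and Aurkb and Hmgb2 have no point at E16.5. Members keep much of their place from stage to stage, from Cdt1 and Aurka near 2.5 h to Lig1 and Ncapd2 near 6 h.

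Since the median over all transcripts was lower at E16.5, half-lives were also compared as z-scores. A z-score is the distance from the mean of all 9505 transcripts kept at all stages in units of their SD, in each replicate. On this relative scale 7 of the 40 members with a half-life at every stage differed over the 3 stages (limma, adjusted p under 0.05), where 3.15% of all transcripts did. They were Top2a, Mki67, Plk1, Ube2c, Nusap1, Smc4 and Aspm, all G2/M genes. 8 members, these and Prc1, were relatively longer-lived at E16.5 than at E11.5, where 2.99% of all transcripts were, and none was shorter-lived. The z-score difference was above 0 in 19 of 19 G2/M genes (median 0.66) and in 17 of 21 S-phase genes (median 0.31), against 4669 of 9505 transcripts (median -0.01). The shift was not particular to the members. It was above 0 in 32 of 35 other mitosis genes (median 0.47, 6 called longer-lived) and 8 of 8 radial glia markers (median 0.56, 3 called). In 21 of 38 other replication genes (median 0.04, 1 called) and 2 of 9 neuron markers (median -0.36, 1 called longer-lived and 2 shorter-lived) it was above 0. No S-phase gene was called in limma, although 7 had an unadjusted p under 0.05 over the 3 stages and 6 between E16.5 and E11.5. The difference between the groups was not tested.

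In hours the replicates of Aspm and Plk1 overlapped between E11.5 and E16.5, but those of E16.5 lay above those of E14.5. Aspm, with the lowest adjusted p (0.0191 over the stages), had 3.61, 3.52 and 2.87 h in the first stage, 3.25, 3.06 and 3.41 h in the next and 3.45, 3.84 and 3.83 h in the last, and its mean z-score went from -0.69 to -0.79 and 0.00. Plk1 had 3.71, 3.20 and 2.78 h, then 3.22, 2.73 and 2.96 h, then 3.80, 3.42 and 4.08 h (z -0.74, -0.90 and 0.03). Top2a, at means of 4.61, 4.40 and 4.56 h, was longer-lived than 54.7%, 44.7% and 73.7% of all transcripts in stage order. Nusap1 had the largest z-score difference between E16.5 and E11.5 (1.00 ± 0.21 SE, 3.91 ± 0.63 and 4.74 ± 0.66 h, SD), followed by Ube2c (0.85 ± 0.17), Prc1 (0.83 ± 0.19), Plk1 (0.77 ± 0.15), Aspm (0.69 ± 0.11), Mki67 (0.60 ± 0.11), Smc4 (0.58 ± 0.12) and Top2a (0.54 ± 0.12).

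The calls were not stable. More members were called over the stages with R2 over 0.8 (15 of 34), over 2000 covered Ts (13 of 39) or log2 hours (14 of 40). In hours without scaling, where the median over all transcripts fell, 1 member was called over the stages and 0 were longer-lived at E16.5. With the half-life fitted to the rate times cpm, which counts the loss of RNA over the chase, 1 and 0 were. The shares of all transcripts called under these settings are not given here. Leaving out E16.5 replicate B left 0 in both counts, and leaving out any other library but E11.5 C left 1 to 3 over the stages and 1 to 4 longer-lived at E16.5. Without E11.5 C the counts were 5 and 3. Summed over the members kept at E16.5, 16 of 19 G2/M and 16 of 21 S-phase genes were longer-lived than the median transcript there, against 5 of 21 and 12 of 21 at E11.5 and 2 of 21 and 10 of 21 at E14.5. Markers of cell types moved on the same scale. The median half-life of 9 neuron markers was 4.93 ± 0.78, 3.79 ± 0.11 and 2.34 ± 0.09 h, and that of 8 radial glia markers 3.55 ± 0.61, 3.70 ± 0.48 and 3.83 ± 0.24 h. Their part in the result was not tested.

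The label itself differed. At 0 h the median conversion rate of all transcripts was 1.19 ± 0.23, 1.13 ± 0.08 and 1.85 ± 0.06% in stage order. That of the S-phase genes was 1.19 ± 0.24, 1.20 ± 0.15 and 1.27 ± 0.03%, and that of the G2/M genes 1.26 ± 0.30, 1.31 ± 0.14 and 0.97 ± 0.07%. At E16.5 the G2/M medians of 0.937, 0.925 and 1.05% thus lay far below the 1.79, 1.89 and 1.88% of all transcripts, whereas at E14.5 they lay above them in each replicate. After 12 h the median G2/M gene had 16.9 ± 3.80, 15.5 ± 2.12 and 16.8 ± 0.70% of its starting rate left at the 3 stages, the median S-phase gene 17.3 ± 3.80, 15.9 ± 0.92 and 13.2 ± 1.09%, and the median transcript 20.0 ± 3.64, 20.7 ± 1.74 and 11.3 ± 0.11%.

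Fitting the rate times cpm joined both readouts. The median G2/M half-life then became 4.12 ± 0.63, 3.15 ± 0.17 and 3.42 ± 0.16 h, and the median S-phase half-life 4.54 ± 0.29, 4.29 ± 0.37 and 4.11 ± 0.38 h, so that at E14.5 and E16.5 every G2/M replicate median (2.99 to 3.33 h and 3.24 to 3.52 h) lay below every S-phase one (3.94 to 4.67 h and 3.71 to 4.47 h). Ube2c went from 4.17 to 3.23 h at E14.5 and from 4.71 to 3.58 h at E16.5 between the fits, and Cdc6, whose level rose, from 3.04 to 3.98 h and from 2.95 to 3.16 h.

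In the 3′UTRs (GENCODE vM21, 1 coding isoform a gene) motifs known to shorten half-lives were counted. A Pumilio site (TGTANATA, sense strand) was present in 5 of 21 S-phase and 5 of 21 G2/M genes (23.8% each), against 28.9% of 8815 measured transcripts, and an AU-rich TATTTAT in 3 (14.3%) and 5 (23.8%), against 31.7%. Per 1000 bases of summed 3′UTR the order differed, with 0.331 and 0.391 Pumilio sites against 0.256, and 0.166 and 0.521 AU-rich sites against 0.295. The AU-rich value of the G2/M genes rested largely on Hmgb2, which held 4 sites, those at bases 1445 and 1449 of its 3′UTR overlapping. Bub1, Cenpe, Cenpf and Prc1 held 1 each. The median 3′UTR was 757 bases in S-phase and 424 bases in G2/M genes, against 1186, and the median coding sequence 2157 and 2382 bases, against 1491.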

How the data were processed

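45 libraries were read from 9 tables, 1 for each pool. Conversion counts were made by the authors with SlamDunk on mm10 with GENCODE exons summed per gene. Replicates were not pooled in the files. The deposited covered-T counts are coverage (a read adds 1 count per T it spans) and were tested with TMM scaling in edgeR 4.0.16 (glmQLFit, glmQLFTest; R 4.3.3), with genes over 10 counts in every library and Benjamini-Hochberg adjustment over all genes tested. The deposited cpm values were whole multiples of 1 read in 100% of values (tolerance 0.01), which gave the reads per library. The deposited conversion rates are a fraction of covered Ts, from which half-lives were fitted as exponential decay relative to 0 h (0 to 24 h, R2 over 0.6) and z-scores tested with limma 3.58.1. The authors' own half-life column and its R2, a score of fit deposited with it, served only to check these fits, of which 99.99% lay within 1%. DESeq2 1.42.0 was an alternative. Covered Ts were 228.7 to 629.1 per library in units of 1000000.

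Groups came from the labels. At 0 h and for half-lives, p-values measure the spread between pools of embryos. The main chase fit took the 45 libraries as separate, so its p-values mix the spread between pools with that between libraries of a pool. With the pool as a block they measure the spread between libraries within a pool. Same-letter libraries of a stage share a pool by design, and their deviations at 0 and 12 h correlated at 0.14 to 0.54 in 9 of 9 pairs; across stages letters mark different embryos (-0.16 to 0.15). No 2 replicates of a group were alike within sampling noise (45 pairs, lowest mean chi-square per gene 2.16). Members and lists (S-phase, G2/M, 42 other replication and 42 other mitosis genes, cell type markers, motifs) were chosen with earlier results of these data known. Named throughout are Mcm2, Pcna, Mki67 and Top2a, and in each comparison the 3 called members of a group with the largest and the 2 members with the smallest change; for half-lives the 3 longest and 3 shortest of each group and those past the test. Tested on simulated data, a log2 change of 1 was recovered in 83.8% of genes for E14.5 against E11.5 (18277 genes) and in 78% for 12 h against 0 h at E14.5 (16523 genes), and a change of 0.5 in 41% and 60%. For half-lives a z-score change of 2 was recovered in 88% and of 1 in 52% of the changed transcripts (9505 transcripts). Counts over reads cover counting error and replicate spread only. Alternatives were other scaling (RLE, none, the cpm scale), DESeq2, no filter, recovered reads, the pool as a block, fits of 1 stage alone, each replicate left out, and for half-lives other filters, scales, background and curve.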

Additional observations from a re-analysis of the deposited data

Results flagged for a closer look

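The change over 12 h of chase differed between stages by a direct test for 16 G2/M genes between E14.5 and E11.5 and for 15 between E16.5 and E11.5. Ube2c (-0.97 log2 units), Cenpe (-0.94) and Nusap1 (-0.83) led the first, and Cenpe (-0.96), Aspm (-0.86) and Hmmr (-0.75) the second. The calls of Cenpe were lost on the cpm scale (-0.71 and -0.75), at 8 h (-0.85 and -0.78) and without some single libraries, as given in the report. For S-phase genes 3 differed between E16.5 and E11.5, namely Cdc6 (0.48), Mcm4 (0.40) and Rpa2 (0.34), with the limits given in the report.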

How the results depend on the processing

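The fall of both groups at each stage step and the decline of G2/M genes over the chase at E14.5 and E16.5 kept direction and a count within 1.5 times under every alternative run. Leaving out 1 replicate gave 18 to 20 S-phase and 11 to 14 G2/M genes lower at the first step, 21 and 21 at the second, 13 to 19 and 10 to 16 G2/M genes lower over the chase at E14.5 and E16.5, 10 to 16 S-phase genes higher at E16.5, and 13 to 16 G2/M genes in both differences between stages. The pool as a block moved other counts as given in the report. With the letter as a block, which pairs different embryos, no call at 0 h changed, and half-life calls fell to 0 members over the stages and 1 longer at E16.5.

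For E11.5 at 12 h, the 8 S-phase genes higher became 5 with no filter, 2 with no scaling factor, 0 on the cpm scale and 2 to 10 with a replicate left out, and the 10 G2/M genes higher became 4, 0 and 5 to 11 under the last 3. Mcm2 (-0.19), Rpa2 (-0.22) and Cdc20 (-0.17) turned below 0 on the cpm scale. The 3 S-phase genes higher at E14.5 became 5 with DESeq2, with RLE and on recovered reads, 13 with the block and 2 to 6 with a replicate left out. The 3 S-phase genes that rose more at E16.5 than at E11.5 became 1 with no filter, 8 with the block, 9 on the cpm scale, 0 at 8 h and 0 to 3 with a replicate left out. Counts over all genes with the block and on the cpm scale stand beside these in the report. The cpm scale, no scaling factor and 8 h were chosen after seeing the data. Of all genes called at E16.5 12 h, 59.9% were higher with TMM, 44.0% on the cpm scale and 37.3% without a factor, at E16.5 8 h 60.2, 38.5 and 35.7%, and at E14.5 2 h 42.8, 19.8 and 26.3%.

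The 7 members called over the stages for relative half-life became 15 with R2 over 0.8, 13 with over 2000 covered Ts, 14 on log2 hours, 1 in hours, 1 with a pooled background, 1 with rate times cpm and 0 to 5 with a replicate left out. The 8 longer at E16.5 became 15 with R2 over 0.8, 0 in hours, 2 with a pooled background, 0 with rate times cpm and 0 to 4 with a replicate left out. The shares of all transcripts called under these alternatives are not given here. The member counts thus show only how far the calls depend on the setting. With a pooled background the median half-lives were 3.99, 3.97 and 3.65 h for S-phase genes at the 3 stages and 3.43 and 3.48 h for G2/M genes at E14.5 and E16.5, and with rate times cpm the latter were 3.15 and 3.42 h. Leaving out a replicate gave 4.34 to 4.68, 4.31 to 4.65 and 3.99 to 4.27 h for S-phase and 3.76 to 4.33, 3.84 to 3.91 and 4.00 to 4.09 h for G2/M genes. The causes were not tested. Aurkb and Hmgb2 have no half-life at E16.5 by the limit on R2, and Hmgb2 had as few as 988 covered Ts there.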
